A study of Mus musculus with 24 samples.

Results

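The germinal centre and plasma cell regulators are 9 genes, *Bach2*, *Bcl6*, *Irf8*, *S1pr2*, *Irf4*, *Prdm1*, *Xbp1*, *Sdc1* and *Igj*, chosen by gene symbol from the 21671 genes of the RNA-Seq files. An activated B cell either enters the germinal centre, where it mutates and selects its antibody genes, or becomes an antibody-secreting plasma cell. Bcl6 and Bach2 are repressors that hold the germinal centre program and keep Prdm1 silent, Irf8 is most abundant in follicular and germinal centre B cells, and S1pr2 is the receptor that confines cells to the germinal centre. Irf4 and Prdm1 (also named Blimp1) drive the plasma cell fate, Xbp1 expands the secretory apparatus, Sdc1 (also named CD138) is the surface marker of plasma cells, and Igj is the J chain that joins IgM and IgA into polymers.

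The study profiled mRNA of mouse spleen after whole-body ionizing radiation (IR), which stabilizes p53. Mice of 8 weeks of age on the C57/Bl6 background, either *Trp53+/+* or p53 knock-out (*Trp53-/-*), were mock-treated or killed 4 h after 7 Gy. Splenic B cells were captured with B220 MicroBeads on a magnetic column, and the flow-through made up the non-B cells, with red blood cells lysed in both. Each combination of cell type and treatment had 4 *Trp53+/+* and 2 *Trp53-/-* libraries, 24 in all in 8 groups, and the sources used here name no batch. The paper counts 4 *Trp53+/+* and 2 *Trp53-/-* mice per condition for its RNA-Seq, while the labels name no mouse. Since the non-B cells were the flow-through of the column, a B and a non-B library can come from the same spleen. The main tests of B against non-B cells did not pair them. The p-values below measure the spread between libraries, which each fit pooled over all its groups. A *Trp53-/-* group has 2 libraries only, so that its p-values and intervals rest largely on the spread of the *Trp53+/+* libraries.

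Expression is given as RPKM, the reads per kilobase of exons after scaling to the reads on exons in each library, so that levels of different genes can be compared. The depth estimated from the lowest values was 4.77 to 11.0 M (mega) reads per library, with a median of 8.78 M, and 1 read on a regulator was worth an RPKM of at most 0.116. No regulator was listed at 0 in any library. The 9 B cell markers summed to 979.5 to 1225.1 RPKM in the B fraction against 241.1 to 677.2 in the other, and the 8 T cell markers to 43.2 to 82.8 against 305.5 to 662.2, so that B cells remained in the non-B fraction. Among 1443 olfactory and vomeronasal receptor genes, which spleen cells are not known to use, 5.4 to 15.9% were above 0 in 19 libraries. The share was 36.7 and 47.3% in irradiated *Trp53+/+* B replicates 1 and 2, and 24.7, 51.4 and 35.8% in irradiated *Trp53+/+* non-B replicates 1, 3 and 4. Where a call changed without these 5 libraries, both values are given, as they are for a part of the values that moved by over 1.5 times. *Trp53* reads were at 44.8 to 47.9 RPKM in mock and 58.7 to 65.8 in irradiated *Trp53+/+* B cells, and at 21.6 and 21.7 in mock and 40.5 and 41.8 in irradiated *Trp53-/-* B cells, so that the deletion left reads on this gene. The p53 target *Cdkn1a* was at 82.3 to 97.8 RPKM in the 4 irradiated *Trp53+/+* B libraries and at 0.562 and 0.726 in the 2 irradiated *Trp53-/-* B libraries. In whole populations of cells, fewer cells of a type and less RNA per cell cannot be told apart.

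In *Trp53+/+* B cells, irradiation lowered *Bach2* and *S1pr2* and raised *Sdc1*, and these 3 of the 9 regulators passed both limits used for a differentially expressed gene, an adjusted p under 0.05 (limma, Benjamini-Hochberg over all genes tested) and a change of over 0.58 on the log2 scale, about 1.5-fold. Of all 13821 genes tested in B cells, 24.7% passed. *Irf8*, *Bcl6* and *Prdm1* were lower and *Irf4* was higher at an adjusted p under 0.05 with smaller changes, which makes 7 of 9 regulators against 51.3% of all genes. The levels before and after IR did not overlap for 5 of 9 (*Bach2*, *Bcl6*, *Irf4*, *Irf8* and *Sdc1*), where 46.2% of all genes had such separate groups. The median log2 change was -0.37 over the 9 regulators and 0.011 over all genes. Without p53, *Bach2* and *Sdc1* both fell, 2 of 9 against 24.3% of all genes. With 2 irradiated and 2 mock libraries, the *Trp53-/-* groups were separate for every regulator but *Xbp1*. Among these were *Prdm1*, *S1pr2*, *Igj* and *Irf8*, at adjusted p of 0.22 to 0.7 (limma). Separate *Trp53-/-* groups therefore carry little weight below, and the share of all genes with them was not counted. The response itself differed between genotypes for *Sdc1*, *Bcl6* and *Bach2*, 3 of 9 against 12% of all genes.

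**Figure D1:**
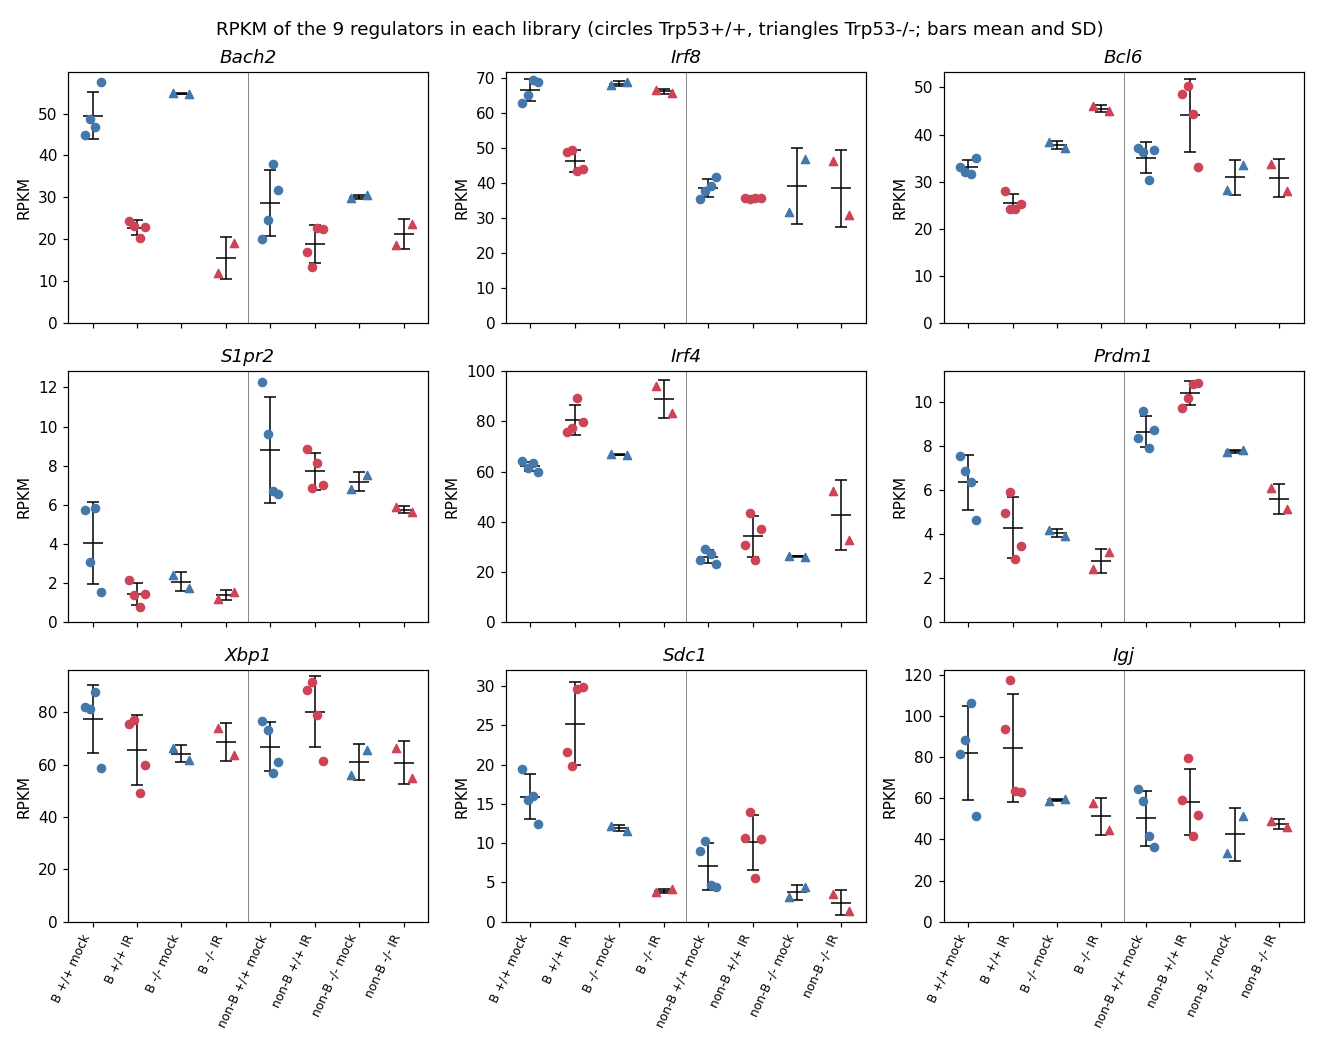
RPKM (vertical axes, from 0) of each regulator in the 24 libraries, by cell type, genotype and treatment. Circles are *Trp53+/+* and triangles *Trp53-/-* libraries, blue is mock and red IR, and bars give the mean and SD of 4 or 2 libraries. *Sdc1* in B cells stands above all mock libraries after IR with p53 and below them without it, and *Bach2* in B cells is lower after IR in both genotypes.

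*Bach2*, the repressor that delays plasma cell differentiation, lies on chromosome 4 (chr4:32325779-32673083, plus strand, NCBIM37). B cells of *Trp53+/+* mice had 45.0, 48.7, 46.8 and 57.6 RPKM in the mock libraries and 24.4, 23.2, 20.2 and 22.9 after IR. The highest irradiated library was far below the lowest mock library. The log2 fold change was -1.11 (SE 0.12, adjusted p = 1.1e-05, limma). Without p53 it was at 54.8 and 54.7 RPKM in mock and at 11.9 and 19.0 after IR, a log2 fold change of -1.83 (SE 0.17, adjusted p = 8.3e-06, limma). *Bach2* thus fell in B cells with and without p53, and all irradiated libraries were under all mock libraries in both genotypes. The response was smaller in *Trp53+/+* cells by 0.72 on the log2 scale (SE 0.21, adjusted p = 0.034, limma). That difference was 0.39 (adjusted p = 0.17) without irradiated *Trp53-/-* replicate 1, the library at 11.9. It also missed the threshold without either mock *Trp53-/-* library (0.72, adjusted p of 0.11 without replicate 1 and 0.1 without replicate 2), without mock *Trp53+/+* replicate 1, 2 or 3 (0.68, 0.71 and 0.7, adjusted p of 0.064, 0.058 and 0.06) and without irradiated *Trp53+/+* replicate 1 (0.68, adjusted p = 0.058). Without the libraries rich in receptor genes it was 0.65 (adjusted p = 0.088), and with no filter on low genes 0.72 (adjusted p = 0.096).

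*Bcl6*, the repressor that defines germinal centre B cells, lies on chromosome 16 (chr16:23965138-23988938, minus strand, NCBIM37). In *Trp53+/+* B cells it was at 33.2, 32.0, 31.5 and 35.0 RPKM in mock and at 28.1, 24.3, 24.2 and 25.3 after IR. The *Trp53-/-* libraries were at 38.4 and 37.1 in mock and at 46.0 and 45.0 after IR. The groups were separate within each genotype, with the irradiated libraries lower in *Trp53+/+* and higher in *Trp53-/-* cells, the latter with 2 against 2 libraries only. The log2 difference between IR and mock was -0.37 (SE 0.06, adjusted p = 0.00027, limma) with p53 and 0.26 (SE 0.08, adjusted p = 0.025) without it, both under the limit of 0.58. The difference between genotypes was -0.63 (SE 0.1, adjusted p = 0.0015, limma) and ranged from -0.68 to -0.6 when each of the 12 B cell libraries was left out in turn. Quantile normalization gave -0.55, under the limit on fold change.

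*Irf8*, a transcription factor of B cells, dendritic cells and macrophages, lies on chromosome 8 (chr8:123260258-123280594, plus strand, NCBIM37). It was at 62.8, 65.1, 69.4 and 68.9 RPKM in mock *Trp53+/+* B cells and at 48.9, 49.4, 43.6 and 43.9 after IR. Those of *Trp53-/-* mice were at 67.9 and 68.8 in mock and at 66.7 and 65.7 after IR. The *Trp53+/+* groups were separate, with a log2 difference of -0.52 (SE 0.06, adjusted p = 1.5e-05, limma), and the *Trp53-/-* values gave -0.05 (95% interval -0.23 to 0.13, adjusted p = 0.7). The difference between genotypes was -0.47 (SE 0.1, adjusted p = 0.0079, limma). The change in *Trp53+/+* B cells passed the fold limit at -0.6 without the libraries rich in receptor genes, and at -0.65 when RPKM was corrected for the removal of duplicated reads. With that correction the difference between genotypes passed it too, at -0.6 (adjusted p = 0.0017, limma). Of 8 dendritic cell markers, 3 (*Xcr1*, *Batf3* and *Clec9a*) fell and 1 (*Zbtb46*) rose in the comparison of irradiated and mock *Trp53+/+* B cells, where 24.7% of all genes were called. The summed level of the 8 was 34.8 to 49.3 RPKM in mock and 32.7 to 40.4 after IR, with none at 0. The 8 macrophage and monocyte markers summed to 402.3 to 540.0 RPKM in mock and 313.9 to 468.4 after IR in these B libraries. Of them 1 was called, *Emr1*, which fell (-0.93). The part of either cell type in the *Irf8* value was not tested.

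*S1pr2*, the sphingosine-1-phosphate receptor that retains cells in the germinal centre (chr9:20770396-20781237, minus strand, NCBIM37), was at 5.73, 3.1, 5.82 and 1.55 RPKM in mock *Trp53+/+* B cells and at 2.18, 1.4, 0.789 and 1.5 after IR. The groups overlapped, since mock replicate 4 was below the highest irradiated library. The log2 fold change was -1.12 (SE 0.34, adjusted p = 0.015, limma), and between -1.45 and -0.91 with any 1 library left out. Levels in *Trp53-/-* B cells were 2.4 and 1.73 in mock and 1.21 and 1.56 after IR, which gave -0.44 (95% interval -1.48 to 0.6, adjusted p = 0.51). The difference between genotypes did not pass (-0.68, adjusted p = 0.46, limma).

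*Irf4*, the transcription factor whose high levels commit B cells to the plasma cell fate, lies on chromosome 13 (chr13:30841095-30858796, plus strand, NCBIM37). Mock *Trp53+/+* B cells were at 64.1, 61.6, 63.2 and 60.0 RPKM and irradiated cells at 75.8, 77.5, 89.1 and 80.0. Without p53 it was at 67.0 and 66.7 in mock and at 94.1 and 83.4 after IR. All irradiated libraries were above all mock libraries in both genotypes. The log2 difference was 0.37 (SE 0.06, adjusted p = 0.00036, limma) with p53 and 0.4 (SE 0.09, adjusted p = 0.003) without it, under the limit on fold change. The genotypes differed by -0.04 in this response (95% interval -0.27 to 0.2, adjusted p = 0.86).

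*Prdm1*, the repressor that extinguishes the B cell program in plasma cells, lies on chromosome 10 (chr10:44156983-44248307, minus strand, NCBIM37). In *Trp53+/+* B cells it was at 7.53, 6.9, 6.4 and 4.64 RPKM in mock and at 4.9, 5.9, 2.86 and 3.5 after IR. The groups overlapped, and the log2 difference of -0.54 (SE 0.21, adjusted p = 0.044, limma) was under the limit on fold change. The value was -0.89 (adjusted p = 0.0037) without the libraries rich in receptor genes, irradiated replicates 1 and 2, which held the 2 highest irradiated values. It was also past both limits without mock replicate 4 (-0.67, adjusted p = 0.02), without irradiated replicate 1 (-0.62, adjusted p = 0.041) and without irradiated replicate 2 (-0.7, adjusted p = 0.012). *Prdm1* in *Trp53-/-* B cells was at 4.18 and 3.9 RPKM in mock and at 2.4 and 3.18 after IR, which gave -0.47 (adjusted p = 0.22). The difference between genotypes was -0.07 (95% interval -0.85 to 0.71, adjusted p = 0.92, limma), and -0.41 (adjusted p = 0.36) without the libraries rich in receptor genes.

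*Xbp1*, the transcription factor of the unfolded protein response (chr11:5420662-5425896, plus strand, NCBIM37), was among the higher regulators, at 49.2 to 91.6 RPKM over all 24 libraries. Mock *Trp53+/+* B cells were at 82.1, 81.2, 87.8 and 58.6 and irradiated cells at 75.6, 77.2, 49.2 and 59.9. The groups overlapped, with a log2 difference of -0.25 (95% interval -0.57 to 0.08, adjusted p = 0.19, limma). Without the libraries rich in receptor genes it was -0.49 (adjusted p = 0.021), still under the limit on fold change. The values of *Trp53-/-* B cells, 66.5 and 61.9 in mock and 74.0 and 63.6 after IR, overlapped too (0.1, adjusted p = 0.77). RPKM counts all reads of the gene and does not show the spliced form of the *Xbp1* mRNA, which encodes the active factor.

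*Sdc1*, the plasma cell surface proteoglycan, lies on chromosome 12 (chr12:8778129-8800521, plus strand, NCBIM37) and had the largest ratio of highest to lowest RPKM of the 9 regulators, 23.3, with 1.29 to 29.9 RPKM over the 24 libraries. In *Trp53+/+* B cells it was at 19.4, 15.5, 16 and 12.5 RPKM in mock and at 21.6, 19.8, 29.6 and 29.9 after IR. In the absence of p53 it was at 12.1 and 11.6 in mock and at 3.71 and 4.11 after IR. Irradiated libraries were thus above the mock libraries with p53 and below them without it, with no overlap in either genotype. *Sdc1* rose by 0.65 on the log2 scale in *Trp53+/+* B cells (SE 0.15, adjusted p = 0.0033, limma), and fell by 1.49 in *Trp53-/-* B cells (SE 0.21, adjusted p = 0.00016). The difference between the responses was 2.13 (SE 0.26, adjusted p = 0.00016, limma), and 2.03 to 2.24 with any 1 of the 12 libraries left out. The rise in *Trp53+/+* cells was under the fold limit without mock replicate 4 (0.54, adjusted p = 0.011), without irradiated replicate 3 (0.56, adjusted p = 0.012) or without irradiated replicate 4 (0.56, adjusted p = 0.011). It was 0.9 without the libraries rich in receptor genes.

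*Igj*, the J chain gene, listed under its former symbol (chr5:88949537-88956916, minus strand, NCBIM37), had the highest single value of the regulators, 117.9 RPKM, and varied between replicates. In *Trp53+/+* B cells it was at 81.6, 88.4, 106.6 and 51.6 RPKM in mock and at 93.9, 117.9, 63.7 and 62.9 after IR. The groups overlapped, with a log2 difference of 0.04 (95% interval -0.46 to 0.54, adjusted p = 0.9, limma), and of -0.32 (adjusted p = 0.26) without the libraries rich in receptor genes. *Igj* in *Trp53-/-* B cells was at 58.8 and 59.6 in mock and at 57.7 and 44.7 after IR (-0.22, adjusted p = 0.64). *Igj* and *Sdc1*, both products of plasma cells, therefore differed in what the test showed, while their difference itself was not tested. Of 6 plasma cell markers, *Slamf7* and *Sdc1* rose in *Trp53+/+* B cells, 2 of 6 against 24.7% of all genes called. *Mzb1* and *Sdc1* fell in *Trp53-/-* B cells, 2 of 6 against 24.3%, and *Prdm1*, *Igj* and *Tnfrsf17* were not called in either. Their summed level was 181.7 to 261.6 RPKM in mock and 281.6 to 334.9 in irradiated *Trp53+/+* B cells, and 193.7 to 195.6 and 161.9 to 162.4 in *Trp53-/-* B cells, with no marker at 0 throughout.

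**Figure D2:**
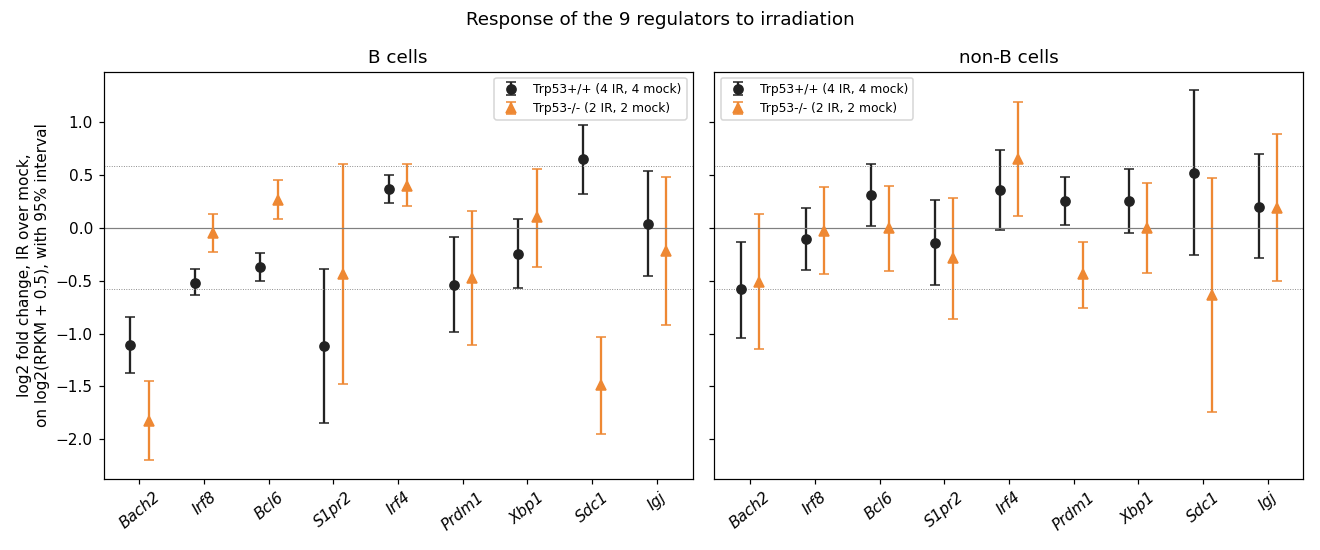
Log2 fold change of each regulator, IR over mock, on the scale of log2(RPKM + 0.5), in B cells (left) and non-B cells (right). Points are estimates from limma for *Trp53+/+* (black circles, 4 IR and 4 mock libraries) and *Trp53-/-* (orange triangles, 2 IR and 2 mock libraries), bars are 95% intervals, and dotted lines mark the limit of 0.58. In B cells *Sdc1* lies at 0.65 with p53 and at -1.49 without it, *Bcl6* at -0.37 and 0.26, and *Irf4* at 0.37 and 0.4.

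Without irradiation, the regulators were not called between genotypes. In mock B cells 0 of 9 differed (limma) against 0.0506% of all genes, and 2 of 9 had an unadjusted p under 0.05 against 4.26% of all genes, *Bcl6* (0.2 on the log2 scale, *Trp53-/-* minus *Trp53+/+*) and *Prdm1* (-0.57). In mock non-B cells 0 of 9 differed against 0.0428% of all genes, and 0 of 9 had an unadjusted p under 0.05 against 5.03% of all genes. With 2 *Trp53-/-* libraries these intervals were wide, for instance -1.13 to -0.02 for *Prdm1* and -1.6 to 0.2 for *S1pr2* in B cells. The mock comparison therefore did not show equal levels.

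In non-B cells, 0 of 9 regulators changed after IR in *Trp53+/+* mice, where 9.85% of all 14018 genes did, and 3 of 9 had an unadjusted p under 0.05 against 34.7% of all genes. *Bach2* was at 20.1, 24.7, 38.0 and 31.7 RPKM in mock and at 16.9, 13.3, 22.6 and 22.4 after IR. The groups overlapped through mock replicate 1, and the log2 difference was -0.58 (SE 0.21, adjusted p = 0.069, limma). With the replicate number as a block, *Bach2* passed both limits (-0.58, adjusted p = 0.01), and 1 of 9 regulators was called. Without mock replicate 1 it was -0.74 (adjusted p = 0.03), and without the libraries rich in receptor genes, which left 1 irradiated library, -1.03 (adjusted p = 0.13). *Bcl6* was at 37.2, 36.2, 30.3 and 36.7 RPKM in mock and at 48.5, 50.3, 44.4 and 33.0 after IR, with a difference of 0.31 (adjusted p = 0.12), and of 0.52 (adjusted p = 0.14) without the libraries rich in receptor genes. Only irradiated replicate 4 lay within the mock range. *Irf8*, at 35.4 to 41.7 in mock and at 35.5 to 35.8 after IR, had the smallest SD of the regulators in these irradiated libraries, 0.104 RPKM.

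*Prdm1* was the 1 regulator whose *Trp53+/+* non-B groups did not overlap, where 22.1% of all genes had separate groups. It was at 8.3, 9.56, 7.9 and 8.7 RPKM in mock and at 9.7, 10.2, 10.8 and 10.8 after IR, a log2 difference of 0.25 (SE 0.1, adjusted p = 0.1, limma). In *Trp53-/-* non-B cells it was at 7.7 and 7.81 in mock and at 6.07 and 5.11 after IR, a difference of -0.44 (SE 0.14, adjusted p = 0.17). The irradiated libraries were above the mock libraries with p53 and below them without it. The genotypes differed by 0.7 in this response (SE 0.18, adjusted p = 0.039, limma), 1 of 9 regulators against 6.55% of all genes. The call was lost (adjusted p of 0.053 to 0.13) without any 1 of 9 libraries, namely mock *Trp53+/+* replicates 1, 3 and 4, irradiated *Trp53+/+* replicates 2 and 3 and all 4 *Trp53-/-* libraries, with values from 0.58 to 0.81. It was also lost with the replicate number as a block (0.7, adjusted p = 0.067, limma). Without the libraries rich in receptor genes, which left 1 irradiated *Trp53+/+* library, the value was 0.67. Macrophages also express *Prdm1*. The 8 macrophage and monocyte markers summed to 374.1 to 436.1 RPKM in mock and 419.9 to 602.0 in irradiated *Trp53+/+* non-B cells, and to 349.0 to 512.4 and 312.2 to 398.0 in *Trp53-/-* non-B cells, with none at 0. *Cd14* alone was called among them in *Trp53+/+* cells, 1 of 8 against 9.85% of all genes, and none in *Trp53-/-* cells, against 0.442%. The part of these cells in the *Prdm1* value was not tested.

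In *Trp53-/-* non-B cells, 0 of 9 regulators changed after IR (limma) against 0.442% of all genes, and 2 of 9 had an unadjusted p under 0.05 against 15.9% of all genes, *Prdm1* and *Irf4*. *Irf4* was at 26.2 and 26.2 RPKM in mock and at 52.5 and 32.7 after IR, a difference of 0.65 with a 95% interval of 0.11 to 1.19, and of 0.31 to 0.99 with any 1 library left out. In *Trp53+/+* non-B cells it was at 24.9, 29.0, 27.2 and 23.1 in mock and at 31.0, 43.6, 24.9 and 37.2 after IR (0.36, adjusted p = 0.17, limma), with irradiated replicate 3 inside the mock range. The difference was 0.74 without the libraries rich in receptor genes, which left 1 irradiated *Trp53+/+* library. *Sdc1* in non-B cells was at 9.0, 10.2, 4.6 and 4.36 in mock and 10.6, 14, 5.5 and 10.5 in irradiated *Trp53+/+* cells, and at 3.07 and 4.35 and then 3.51 and 1.29 in *Trp53-/-* cells. The log2 difference in *Trp53+/+* cells was 0.52, and 1.03 without the libraries rich in receptor genes, again with 1 irradiated library left. The difference between genotypes had the sign seen in B cells, at 1.15, but its 95% interval of -0.2 to 2.5 included 0 (adjusted p = 0.26). It was 0.57 without irradiated *Trp53-/-* replicate 2 and 1.74 without irradiated *Trp53-/-* replicate 1, the extremes over all libraries left out.

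The regulators were next compared between the *Trp53+/+* fractions. In mock libraries *Irf4*, *Sdc1*, *Bach2*, *Irf8* and *Igj* were higher and *S1pr2* was lower in B cells, 6 of 9 against 24.6% of all 14598 genes. The log2 difference, B minus non-B, was 1.25 for *Irf4* (62.2 ± 1.83 against 26.1 ± 2.6 RPKM, SD, n = 4 each, adjusted p = 7.3e-07, limma) and 0.78 for *Irf8* (66.5 ± 3.16 against 38.5 ± 2.64 RPKM, adjusted p = 7.8e-08). *Sdc1* differed by 1.19 (15.9 ± 2.85 against 7.04 ± 2.98 RPKM, adjusted p = 0.0025) and *Bach2* by 0.81 (49.5 ± 5.61 against 28.6 ± 7.88 RPKM, adjusted p = 0.0015). *S1pr2* was higher in the non-B fraction, where it was at 12.3, 9.6, 6.7 and 6.56 RPKM, than in B cells by 1.13 (a B minus non-B value of -1.13, adjusted p = 0.0088). *Prdm1* was at 8.64 ± 0.705 RPKM in non-B and 6.35 ± 1.24 in B cells, with separate groups but an adjusted p of 0.063. The groups did not overlap for 6 of 9 regulators, against 41.7% of all genes.

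The *Igj* difference in mock, 0.69 (adjusted p = 0.04, limma), came from overlapping groups, 51.6 to 106.6 RPKM in B and 36.3 to 64.5 in non-B cells. It missed the threshold without B replicate 1, 2 or 3 (0.68, 0.64 and 0.55, adjusted p of 0.076, 0.094 and 0.13), without non-B replicate 3 or 4 (0.62 and 0.55, adjusted p of 0.091 and 0.12), under quantile normalization (0.56, adjusted p = 0.055) and with no filter on low genes (0.69, adjusted p = 0.092). *Xbp1* and *Bcl6* differed by 0.2 and -0.09 (adjusted p of 0.35 and 0.56). B cells left in the non-B fraction bear on all these values: *Cd22*, a B cell receptor, was at 50.7 ± 10.4 RPKM in mock non-B and 116.2 ± 7.99 in mock B cells, and the part of such cells in each regulator was not tested.

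**Figure D3:**
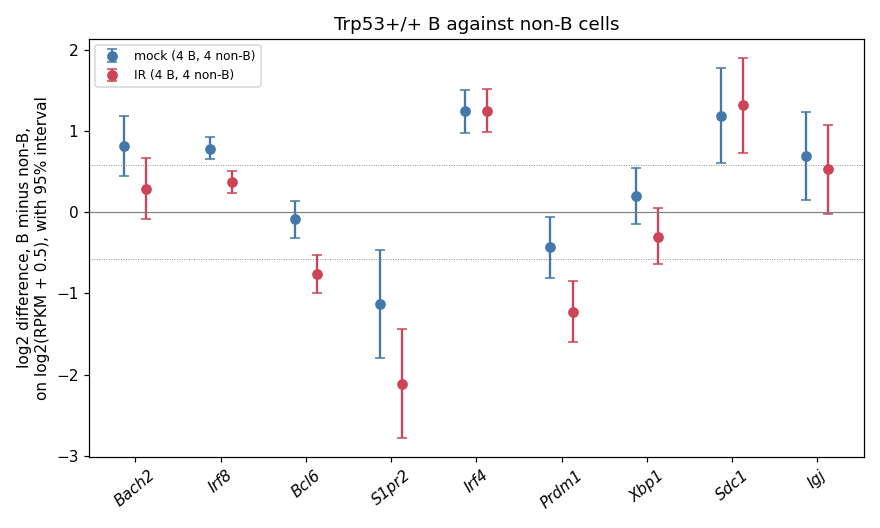
Log2 difference of each regulator between *Trp53+/+* B and non-B cells (B minus non-B, on log2(RPKM + 0.5)) in mock (blue) and irradiated libraries (red), 4 against 4 each. Bars are 95% intervals from limma, and dotted lines mark the limit of 0.58. *Irf4* lies at 1.25 in both treatments, and *Bcl6* moves from -0.09 in mock to -0.76 after IR.

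After IR, 5 of 9 regulators differed between B and non-B cells, against 35.6% of all genes. *Irf4* (1.25) and *Sdc1* (1.32) were higher in B cells, and *S1pr2* (-2.11), *Prdm1* (-1.23) and *Bcl6* (-0.76) were lower, all at an adjusted p of 0.00063 or less (limma). Leaving out the libraries rich in receptor genes left 1 irradiated non-B library, replicate 2. *Sdc1* was then at 1.06, and *Xbp1* at -0.75 against -0.3 with all libraries. *Igj* was at 0.53 (adjusted p = 0.087, limma), and at 0.69 (adjusted p = 0.035) without non-B replicate 2. It was at -0.33 without the libraries rich in receptor genes, which turned its direction and left non-B replicate 2, its highest irradiated non-B value (79.8 RPKM). *Bach2* was at 0.29, and at 0.67 without the same libraries. The groups did not overlap for 6 of 9, against 51.3% of all genes. The response to IR differed between the cell types for *Bcl6* (-0.68, SE 0.15, adjusted p = 0.0038) and *Prdm1* (-0.8, SE 0.25, adjusted p = 0.027, limma), 2 of 9 against 18.8% of all genes, both lower in B than in non-B cells. *Irf8* differed by -0.41 (adjusted p = 0.0029, limma), under the limit on fold change. *Irf4* differed by 0.01 (95% interval -0.37 to 0.38), and by -0.3 without the libraries rich in receptor genes. The *Prdm1* difference missed the threshold without mock B replicate 1 or 2 (-0.71 and -0.75, adjusted p of 0.057 and 0.054) and without irradiated B replicate 3 or 4 (-0.64 and -0.72, adjusted p of 0.053 and 0.054). Without mock B replicate 4, *S1pr2* (-1.31, adjusted p = 0.016) and *Xbp1* (-0.63, adjusted p = 0.047) were called as well. *Xbp1* was called too without irradiated non-B replicate 4 (-0.62, adjusted p = 0.047, limma). It was at -0.5 with all libraries, and at -0.95 without the libraries rich in receptor genes, with 1 irradiated non-B library left. *Bach2* was called without mock non-B replicate 3 (-0.67, adjusted p = 0.043, limma) or irradiated non-B replicate 2 (-0.67, adjusted p = 0.045). It was at -0.52 with all libraries and at -0.14 without those rich in receptor genes.

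Irf4 and Irf8 are related factors that share DNA sites and oppose each other in the choice between plasma cell and germinal centre, and their ratio was examined after their values had been seen. In *Trp53+/+* B cells the ratio of *Irf4* to *Irf8* RPKM was 1.02, 0.946, 0.911 and 0.871 in mock and 1.55, 1.57, 2.05 and 1.82 after IR. The mean log2 ratio was 0.89 higher after IR. Since each gene already had separate groups that moved opposite ways, separate ratios follow from them, and no test is given. Without p53 the ratio was 0.986 and 0.968 in mock and 1.41 and 1.27 after IR. Both genes contributed in *Trp53+/+* B cells, and in *Trp53-/-* B cells *Irf4* moved while *Irf8* was at 65.7 to 68.8 RPKM in all 4 libraries. In *Trp53+/+* non-B cells the log2 ratio was 0.47 higher after IR. The ratio of *Bcl6* to *Prdm1*, 2 repressors that silence each other, was 4.41 to 7.55 in mock and 4.11 to 8.46 in irradiated *Trp53+/+* B cells (log2 difference 0.23). Without p53 it was 9.2 and 9.52 in mock and 19.2 and 14.1 after IR.

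**Figure D4:**
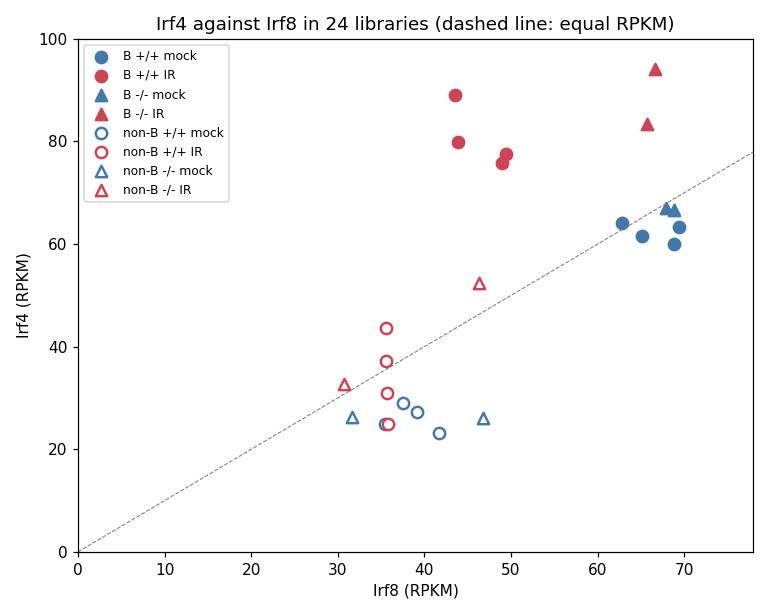
RPKM of *Irf4* (vertical axis) against *Irf8* (horizontal axis) in each of the 24 libraries. Filled symbols are B cells and open symbols non-B cells, circles *Trp53+/+* and triangles *Trp53-/-*, blue mock and red IR, and the dashed line marks equal RPKM. Irradiated *Trp53+/+* B cells lie up and to the left of the mock libraries, at 43.6 to 49.4 RPKM of *Irf8*, and irradiated *Trp53-/-* B cells lie straight above them.

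Other genes of the same programs were counted from lists. Of 22 further germinal centre genes, 4 rose and 2 fell in irradiated *Trp53+/+* B cells, with a median log2 change of -0.06, or 6 of 22 against 24.7% of all genes. Those with the largest changes were *Mef2b*, which activates *Bcl6* transcription (3.05, from 4.81 ± 1.8 to 42.1 ± 8.49 RPKM, adjusted p = 2.7e-07, limma), the death receptor *Fas* (2.75, from 6.59 ± 1.44 to 46.7 ± 3.11 RPKM), the Myb-family factor *Mybl1* (2.49, from 4.99 ± 2.58 to 27.6 ± 4.93 RPKM) and *Gcsam*, a germinal centre signalling adaptor (-1.18, from 3.72 ± 1.95 to 1.35 ± 0.845 RPKM). *Mef2b* rose 3.05 on the log2 scale in the same libraries in which *Bcl6* was lower. Among *Trp53-/-* B cells 3 rose and 1 fell, against 24.3% of all genes called, namely *Mef2b* (1.44), *Fas* (1.46), *Ung*, the uracil glycosylase of antibody gene mutation (1.69), and *Foxo1* (-0.67). The response differed between genotypes for 5 of the 22, against 12% of all genes, with *Mybl1* (2.72), *Mef2b* (1.6) and *Fas* (1.29) higher and *Ung* (-1.28) lower with p53. In *Trp53+/+* non-B cells 4 rose and 2 fell, against 9.85% of all genes called, with *Mybl1* (2.51), *Mef2b* (2.23), *Fas* (1.38) and *Ung* (-1.2) the largest, and 0 of 22 were called in *Trp53-/-* non-B cells, against 0.442%. The genotype difference in non-B cells was called for 5 of 22, against 6.55% of all genes, with *Mybl1* (2.53), *Mef2b* (1.33) and *Fas* (1.2) higher and *Ung* (-1.62) lower with p53.

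Of 28 plasma cell and secretory pathway genes, 1 rose and 0 fell in irradiated *Trp53+/+* B cells, against 24.7% of all genes called, namely the surface receptor *Slamf7* (0.99, from 36.6 ± 2.11 to 73.5 ± 5.81 RPKM, adjusted p = 2.1e-07, limma). Without p53 3 genes rose, the chaperone *Hyou1* (0.76), its partner *Sdf2l1* (0.72) and the stress-induced secreted factor *Manf* (0.67), and 2 fell, *Creb3l2* (-1.0), a membrane-bound transcription factor, and *Mzb1* (-0.63), a B cell chaperone, or 5 of 28 against 24.3% of all genes. The response differed between genotypes for 4 of 28, against 12% of all genes, with *Mzb1* (1.06) and *Slamf7* (0.6) higher and *Manf* (-0.85) and *Sdf2l1* (-0.84) lower with p53. In non-B cells 0 of 28 were called after IR in either genotype (limma), against 9.85 and 0.442% of all genes with and without p53. The genotype difference in non-B cells was called for 3 of 28, against 6.55% of all genes, with *Ern1*, the sensor that splices *Xbp1* mRNA (1.0), and *Slamf7* (0.68) higher and *Hyou1* (-0.73) lower with p53.

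Of 15 relatives of the regulators tested, 0 rose and 5 fell in *Trp53+/+* B cells, with a median log2 change of -0.42, against 24.7% of all genes called in either direction. Of the other receptors for sphingosine-1-phosphate, *S1pr1*, *S1pr3* and *S1pr4* were among them. *S1pr1*, which guides lymphocytes out of lymphoid organs, fell from 94.6 ± 6.26 to 31.9 ± 3.33 RPKM (-1.56, adjusted p = 1e-08, limma), *S1pr3*, known from marginal zone B cells, from 26.5 ± 3.98 to 3.48 ± 0.476 RPKM (-2.75), and *S1pr4* from 54.9 ± 3.27 to 17.5 ± 2.37 RPKM (-1.63). The syndecan *Sdc3* fell by 0.97, opposite in sign to its relative *Sdc1*. Without p53 *S1pr4* (-1.78), *Sdc3* (-0.98), *Irf7* (-0.81) and *Irf2* (-0.79) fell, or 4 of 15 against 24.3% of all genes. The responses of *S1pr3* (-2.21) and *S1pr1* (-1.07) were lower with p53 than without it, 2 of 15 against 12% of all genes. *Bcl6b*, the close relative of *Bcl6*, and *S1pr3* were the 2 that fell in *Trp53+/+* non-B cells (-0.6 and -1.59), against 9.85% of all genes called, and the genotype difference in non-B cells was called for *S1pr3* alone (-1.83), 1 of 15 against 6.55%.

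The 250 bases before each annotated start were searched for motifs in the RefSeq promoter table, and all 11 windows of the 9 regulators matched the NCBIM37 genome exactly. The motifs were TTCCNNGAA, the core of the elements that BCL6 and STAT factors are known to bind, TGANTCA, the core of elements bound by BACH2 and AP-1, GAAANNGAA, part of the elements bound by factors of the IRF family, and the p53 half-site and full p53 element by name. Both strands were searched in 32851 promoters. TTCCNNGAA was in 4.06% of promoters, TGANTCA in 6.75%, GAAANNGAA and the p53 half-site in 7.13% each, and the p53 element with adjacent half-sites, which includes 2 half-sites, in 0.00913%. The windows with any match, those of 4 regulators, are shown. Each is 5′ to 3′ on the strand of the gene, ends at the base before the start, and has the match in capitals. The *Bcl6* window (chr16:23981370-23981619, minus strand) belongs to the downstream of its 2 starts and holds TTCCNNGAA at both -168 to -160 and -88 to -80 from the start. The *Irf8* window (chr8:123260008-123260257, plus strand) holds 1 on the minus strand at -171 to -163. The *Prdm1* window (chr10:44178555-44178804, minus strand) holds TGANTCA at -48 to -42, and the *Bach2* window (chr4:32504160-32504409, plus strand) a p53 half-site at -238 to -229. Both of these windows lie inside the span given above for their gene, so the start used is not the beginning of that span.
Bcl6: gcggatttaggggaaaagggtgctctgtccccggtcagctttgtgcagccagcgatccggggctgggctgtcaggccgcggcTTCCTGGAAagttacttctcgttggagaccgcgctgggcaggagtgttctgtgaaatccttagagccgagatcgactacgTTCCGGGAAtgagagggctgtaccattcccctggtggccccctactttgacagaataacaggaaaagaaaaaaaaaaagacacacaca
Irf8: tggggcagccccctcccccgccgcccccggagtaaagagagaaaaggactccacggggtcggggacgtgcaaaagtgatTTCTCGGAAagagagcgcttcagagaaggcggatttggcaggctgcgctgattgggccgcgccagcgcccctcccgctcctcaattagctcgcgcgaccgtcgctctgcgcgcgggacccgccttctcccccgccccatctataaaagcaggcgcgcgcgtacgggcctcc
Prdm1: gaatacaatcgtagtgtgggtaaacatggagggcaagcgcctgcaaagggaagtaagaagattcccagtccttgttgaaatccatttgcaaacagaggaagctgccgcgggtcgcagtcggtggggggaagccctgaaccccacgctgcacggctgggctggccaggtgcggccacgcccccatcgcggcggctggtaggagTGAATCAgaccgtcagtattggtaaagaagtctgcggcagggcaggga
Bach2: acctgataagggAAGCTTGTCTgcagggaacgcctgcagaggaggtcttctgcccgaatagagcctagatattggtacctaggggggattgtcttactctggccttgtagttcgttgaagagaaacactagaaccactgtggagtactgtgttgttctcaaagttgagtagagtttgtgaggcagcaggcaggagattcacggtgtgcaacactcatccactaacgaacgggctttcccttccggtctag
The other windows held none of these letters. No window held the full p53 element, which was searched without mismatch or spacer. So exact a match was in 0.00913% of promoters only, so its absence does not show a lack of p53 sites at these genes. The paper instead scanned its p53 peaks with a weight matrix that allowed a spacer. A match is a description of the sequence and does not show that a factor binds there.

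Among 14688 expressed genes, the patterns most like each regulator over the 24 libraries were found by Pearson's r of log2(RPKM + 0.5), with no test, since libraries of a group share cell type, genotype and treatment. *Irf4* was closest to *Il12a* (r = 0.978), *Lynx1* (0.978) and *Il4i1* (0.975). *Bach2* was closest to *Aff3* (0.97), to *Bach2os* (0.962), an antisense gene at its own locus whose reads cannot be told from those of *Bach2* in a kit without strand marks, and to *Acsf2* (0.95). *Sdc1* was closest to *Lamc1* (0.942), *Capg* (0.941) and *Bhlhe41* (0.928), and *Irf8* to *Tcf4* (0.947), *Fgd2* (0.943) and *Ppp3ca* (0.943). *Prdm1* and *S1pr2* shared *Sirpb1a* (0.931 and 0.95) and had an r of 0.88 with each other. The other neighbours of *Prdm1* were *Naip5* (0.937) and *Abcb1a* (0.927), and those of *S1pr2* were *Kif23* (0.946) and *Vwa5a* (0.939). The likeness was weaker for *Igj* (*Rprl1* 0.866, *Clic1* 0.861 and *Pon3* 0.859), *Bcl6* (*Arid3a* 0.858, *Chsy1* 0.841 and *Ubap1* 0.834) and *Xbp1* (*Plaur* 0.809, *Chst1* 0.806 and *Dusp16* 0.802). Among the regulators themselves, *Sdc1* and *Igj* had an r of 0.73 and *Irf4* and *Irf8* of 0.72, while *Irf4* ran against *Prdm1* (-0.8) and *S1pr2* (-0.87).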

How the data were processed

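The 24 samples were grouped by the cell type, genotype, treatment and replicate number in their labels. The authors deposited RPKM values with 3 decimals, 1 file per sample. The sources used here describe masking of bases under a quality of 20, alignment to mm9 with TopHat (2.0.8 in the submitters' processing notes), removal of duplicated reads, counting with featureCounts 1.4.5 over UCSC gene models, and division by gene length and by the reads on exons. Ribosomal RNA was depleted, and the kit does not mark strand.

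RPKM are not counts, so log2(RPKM + 0.5) was tested with limma 3.58.1 (lmFit and eBayes with a trend) in R 4.3.3, with Benjamini-Hochberg adjustment over all genes tested. The 12 samples of a cell type, or the 16 *Trp53+/+* samples for B against non-B cells, were fitted with 4 group means. The fit took genes over an RPKM of 1 in any *Trp53+/+* sample it used. A call needed an adjusted p under 0.05 with a log2 fold change beyond 0.58 either way. Fold changes on this scale understate those of low genes. The fits were tested on simulated data.

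Depth was the read number that turned low RPKM values most nearly into whole reads, given each gene's exonic length (GENCODE annotation of NCBIM37, the assembly behind mm9, matched by symbol for 91.1% of genes). It is approximate, since 56.9 to 67.4% of the values lay within 0.1 of a whole read. If 1 read was kept per start position and strand, RPKM has a ceiling of 181.8 to 419.3 at these depths. The highest RPKM of each library was 73.3 to 96.5% of it, so high levels may be compressed. The ceiling was 195.7 to 263.5 in mock and 260.1 to 419.3 in irradiated *Trp53+/+* B libraries, and 216.2 to 228.1 in the *Trp53-/-* B libraries. Compression may therefore be unequal between the groups compared. No library was a copy of another. Deviations of same-numbered mock and irradiated libraries from their group means correlated at 0.16 to 0.32 in all 4 pairs of *Trp53+/+* non-B cells, so that there the replicate number was taken to pair the samples, a pairing that comes from the data and not from the labels. They correlated at 0.02 to 0.09 in *Trp53+/+* B cells, 0.05 in *Trp53-/-* B cells and -0.25 in *Trp53-/-* non-B cells, where it was not. Mock and irradiated mice were separate cohorts, so a pair of mock and irradiated libraries is not the same mouse. Same-numbered B and non-B libraries correlated at -0.05 to 0.35 in mock and at -0.1 to 0.29 in irradiated *Trp53+/+* mice. The main fits held no pairing. The block for the replicate number was an alternative fit, and it put libraries of the same number together across both genotypes, in B and in non-B cells.

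The regulators, gene lists and motifs were chosen with earlier results of these data known. All 9 regulators are named, with the 3 genes most like each and at most 4 called genes of each list and comparison, those with the largest change, beside the called markers. Alternatives were pseudocounts of 0.1 and 1, scaling by median ratios, quantile normalization, a filter of RPKM above 1 in at least 4 samples or none, no fold limit, a block for the replicate number, a fit of *Trp53+/+* samples by themselves, and each sample left out. A further 4 were added after the values were seen, namely without libraries with over 20% of receptor genes above 0, that share as a covariate, pairs of B and non-B libraries by replicate number, and a correction for duplicate removal. Python 3.11.15 with numpy 2.4.6, pandas 2.3.3 and matplotlib 3.10.9 made the other tables and plots.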

Additional observations from a re-analysis of the deposited data

Results flagged for a closer look

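The response to IR of 4 regulators differed between *Trp53+/+* and *Trp53-/-* B cells by limma's interaction test, on the log2 scale, for *Sdc1* by 2.13 (adjusted p = 0.00016), for *Bach2* by 0.72 (adjusted p = 0.034), for *Bcl6* by -0.63 (adjusted p = 0.0015) and for *Irf8* by -0.47 (adjusted p = 0.0079). With no limit on fold change, 1125 of all 13821 genes were higher and 1469 lower in this difference. *Sdc1* and *Bcl6* moved in opposite directions in the 2 genotypes, *Bach2* was lower after IR in both, and the *Irf8* difference was under the limit of 0.58. The *Bach2* call was lost in 7 of 12 fits with 1 library left out. In non-B cells the genotypes differed for *Prdm1*, by 0.7 (adjusted p = 0.039, limma), 1 of 9 regulators against 6.55% of all genes past both limits. That call was lost in 9 of 12 fits with 1 library left out. Between *Trp53+/+* B and non-B cells the response differed for *Bcl6* by -0.68 (adjusted p = 0.0038, limma), for *Prdm1* by -0.8 (adjusted p = 0.027) and for *Irf8* by -0.41 (adjusted p = 0.0029). *Bcl6* and *Prdm1* passed both limits, 2 of 9 against 18.8% of all genes, and the *Prdm1* call was lost in 4 of 16 fits with 1 library left out.

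In mock *Trp53+/+* non-B cells, *Bcl6* in replicate 3 was at 30.3 RPKM with the other libraries at 36.2 to 37.2, a gap of 0.852 of the whole range of the group, above Dixon's 95% critical value for 4 samples. It was the 1 such library among 36 groups of 4 tested, and chance gives about 1 in 20.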

How the results depend on the processing

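Over all alternatives and all fits without 1 library, 2363 of 2430 values of single regulators kept their call or stayed uncalled. The call was lost for 38 and gained for 29, and 0 changed sign among those called. A value that stayed uncalled was counted as unchanged even if its sign turned or its adjusted p crossed the limit. In *Trp53+/+* B cells without the libraries rich in receptor genes, the *Igj* change after IR went from 0.04 to -0.32. The adjusted p of *Xbp1* went from 0.19 to 0.021 there (limma). The number of regulators called after IR in *Trp53+/+* B cells was 3. It was 7 with no limit on fold change, 5 without the libraries rich in receptor genes, 5 with that share as a covariate, and 2 to 4 with 1 library left out. In *Trp53-/-* B cells it was 2, and 4 with no limit on fold change. In *Trp53+/+* non-B cells it was 0, and 0 to 1 with 1 library left out. The genotype difference in non-B cells gave 1, and 0 without the libraries rich in receptor genes, 0 with the covariate, and 0 to 1 with 1 library left out. The cell type difference gave 2, and 1 to 4 with 1 library left out. With the replicate number as a block, *Bach2* was called in *Trp53+/+* non-B cells (1 regulator, adjusted p = 0.01) and the *Prdm1* genotype difference in non-B cells was not (0 regulators), and no other call changed. In *Trp53+/+* non-B cells, where the numbers were taken to pair the samples, 2 of 4 libraries matched their own number best. Where they were not, it was 3 of 4 in *Trp53+/+* B cells, 2 of 2 in *Trp53-/-* B cells and 0 of 2 in *Trp53-/-* non-B cells. The causes of these changes were not tested.

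Each *Trp53-/-* group had 2 libraries, so differences of the size of those of *Prdm1* and *S1pr2* in B cells could not be settled there. The lowest regulator, *S1pr2*, at 0.789 RPKM, was still above the at most 0.074 RPKM of 1 read.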
